A study of Homo sapiens with 3 samples.

Results

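The array labelled decitabine, 1 of the 3 dual-colour arrays of the study, set RNA of drug-treated YB5 cells against RNA of control cells in the same hybridisation. SW48 is a colon cancer line, and its clone YB5 holds 1 GFP reporter gene whose viral promoter is methylated and off. By the label, treated cells were given decitabine at 25 nM on each of days 1 to 4 (4 doses) and were collected on day 6. Control cells received DMSO and are called untreated in the sample title. A pair of further arrays from the same slide, labelled carboplatin (20 µM on the same days) and both drugs, serve here as values to set beside it. Treated RNA carried the green dye Cy3 and control RNA the red dye Cy5 on each array, with no exchange of dyes, so any preference of a probe for a dye is part of its value. With 1 array there is no replicate, so values are given without tests. Every change below describes this hybridisation of 2 RNA preparations from 1 clone.

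Cells use decitabine as a building block of new DNA. The maintenance methyltransferase DNMT1 stays bound where it meets the drug, and newly made strands then lack methyl marks. The bound protein is itself a form of DNA damage. Carboplatin forms crosslinks in DNA. A cell with damaged DNA stabilises the transcription factor p53, which switches on an inhibitor of cyclin-dependent kinases (CDKN1A, p21), its own inhibitor MDM2, and genes for repair, cell death and metabolism. The rise of p21 keeps the DREAM repressor complex on genes needed for DNA replication and cell division, many of which carry a CHR element in their promoters.

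Genes were counted outside columns 1 to 9 of the array, an edge strip that holds 4364 of 43376 gene spots (10.1%). In this strip the control signal was locally low: the median log2 ratio of treated over control was 0.75, against -0.02 in the other columns, and the strip ended between column 9, with a median of 0.38, and column 10, with 0.01. The same strip had a median of -0.03 on the carboplatin array and 0.01 on that of both drugs. The strip was left out on all 3 arrays, which left 17464 of the 18621 genes with a probe. Repeated spots of 1 probe (262 probes) then had a pooled SD of 0.08 on the log2 scale, compared with 0.24 when the strip was kept. This SD is the technical error within the array and says nothing of differences between cultures.

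**Figure D1:**
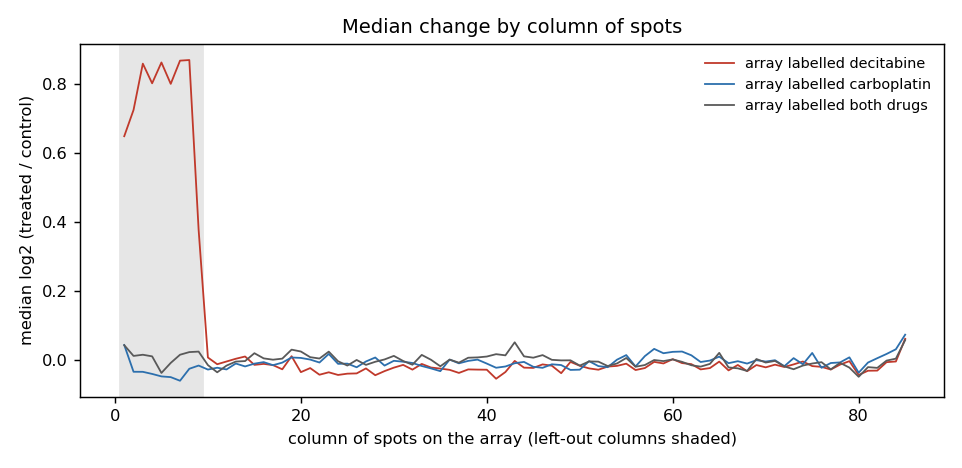
Median log2 ratio of treated over control (y axis) for each column of spots (x axis) on the 3 arrays, with the columns left out shaded. On the array labelled decitabine (red) the strip has a median of 0.75 over its spots and drops to 0.01 at column 10, while the other arrays show no such step.

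Signals are given in 2 forms. The raw mean signal is in scanner units, with a median of 321 in the control channel and 163 in the treated channel of this array, and median signals of 74.9 and 57.2 at negative control spots. Since the treated channel was dimmer, and more so for bright spots, ratios of raw signals understate rises. The normalised log2 signal of each channel has this dye difference removed by loess, and its difference between channels is the log2 change. A spot well above background by the scanner software was found for 69.8% of gene spots in the control channel and 65.0% in the treated channel.

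Markers of colon epithelium were present. Of 10 measured, 9 were above background in at least 1 channel, among them the intestinal transcription factor CDX2 (normalised log2 signal 10.52 in the control and 10.50 in the treated channel) and KRT19 (14.38 in both). KRT20, LGALS4 and KRT8 were dim, with normalised log2 signals of 7.18, 6.70 and 7.28 in the control. CDH17 was above background in the control channel only, at 162 raw units, and GPA33 was not above background. Of fibroblast, endothelial and immune markers 1 of 6, 1 of 4 and 3 of 5 were above background in at least 1 channel. Among the immune markers CD68, a lysosomal glycoprotein that other cells can also express, had raw signals of 367 units in the control and 359 in the treated channel, above the median of each channel. DCN, LUM, PECAM1, CDH5 and PTPRC were not above background in either channel.

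A gene counted as risen or fallen at a ratio of 1.5-fold, if 1 or both of its channels were well above background. By this rule 887 genes rose (5.08% of those measured) and 856 fell (4.9%). At 2-fold these numbers were 295 and 190, and 51 genes rose and 12 fell at least 4-fold. Of the changed genes 50.9% were higher in treated cells. Loess centres an array near 0, and this share followed the normalisation. It was 9.58% with a median shift in place of loess, which moved the median of all genes by -0.12. It was 30.3% in the scanner's processed signals, 40.5% in its log ratio, 38.9% in the authors' deposited ratios, 63.0% with the edge strip kept and 57.1% when all probes of a gene were averaged. With the median shift 374 genes rose and 3528 fell. The quartiles of all genes were -0.16 and 0.16, and the SD over genes was 0.39. Of 744 changed genes with more than 1 probe, 634 had all probes on the same side of 0, and 530 had at least 1 probe short of 1.5-fold.

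**Figure D2:**
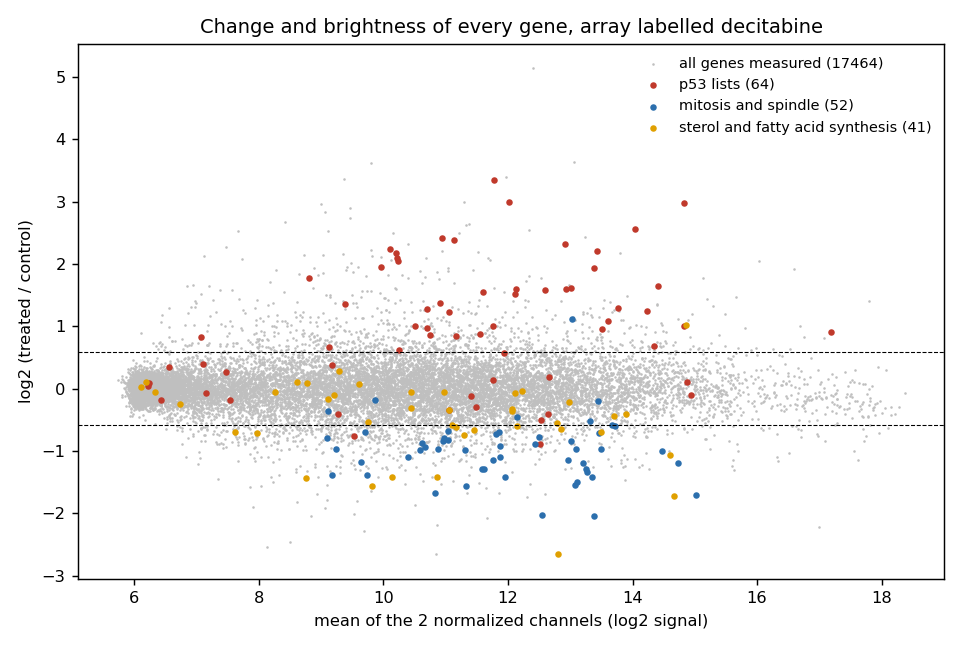
Log2 change (y axis) against the mean normalised log2 signal of both channels (x axis) for 17464 genes of the array labelled decitabine, with 64 genes of the p53 lists in red, 52 of mitosis in blue and 41 of sterol and fatty acid synthesis in yellow. Dashed lines mark 1.5-fold. Of the red points 42 rose, and of the blue points 46 fell.

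The largest rises were those of ATF3, a stress-induced transcription factor, and GDF15, a secreted stress cytokine. ATF3 (chr1:212793856-212793915, hg19, + strand, the position of the probe) had a normalised log2 signal of 9.84 in control and 14.98 in treated cells, a change of 5.14 or 35.2-fold, and its second probe gave 3.89. Its change was -0.02 on the carboplatin array and 4.42 with both drugs. For GDF15 (chr19:18499890-18499949, + strand) the raw signal was 12223 units in control and 153864 in treated cells, a normalised change of 4.96 or 31.2-fold. It was at 1.65 and 5.14 on the other arrays.

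Among the next rises were enzymes and proteins of the cell surface. SULF2, which removes sulphate from heparan sulphate outside the cell, rose by 3.64, and the aldehyde dehydrogenase ALDH3A1 by 3.39. LAMC3, a laminin chain, rose by 3.37 from a control signal of 317 units to 1520 in treated cells. The helicase-like gene DQX1 rose by 3.63 at its brightest probe and by 1.84 at its second. The potassium channel KCNN4 (2.74), the protease PLAU (urokinase, 2.64), the adhesion protein NECTIN4 (2.52), the lipid transporter ABCA12 (2.53), the T-cell ligand TNFSF9 (2.50), the proteoglycan SDC4 (2.43) and the galectin LGALS7 (2.32) rose as well. LGALS7 shares sequence with the adjacent copy LGALS7B, so its value is uncertain between them. GRIN2C rose by 3.00 at its brightest probe while its second probe gave 0.19, and the second probe of INPP5D, an inositol phosphatase, gave 0.33 beside 2.55. These second probes were dim, at 84.3 and 73.9 raw units in treated cells, against 4981 and 8882 at the brightest probes. ARRDC4, an arrestin-like regulator of glucose uptake, rose by 2.84, WFDC2 by 2.89, and LY6D, a surface marker of squamous epithelium, by 2.68.

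The largest falls, again of genes whose probes all moved the same way, were smaller than the largest rises. IL1R2, the decoy receptor of interleukin 1, fell from a normalised log2 signal of 12.17 to 9.51, a change of -2.66, and SCD, the enzyme that makes monounsaturated fatty acids, from 14.13 to 11.47, a change of -2.65. All 4 probes of SCD fell, the weakest by 1.35. CLRN3 changed by -2.55 and in treated cells had a raw signal of 85.8 units, close to the negative controls. MACROD2 gave -2.46 at its brightest probe and -1.98, -0.28 and -0.13 at the others. The last of these was dim, at 63.4 raw units in treated and 107.8 in control cells. The histone gene H4C3 (-2.23), the R-spondin receptor LGR6 (-2.18, with -2.51 at its second probe), PRR15L (-2.08), the cytokinesis factor ECT2 (-2.05, with -0.76 and -0.29 at its other probes), the spindle protein ASPM (-2.03) and the phospholipid acyltransferase MBOAT1 (-2.01) completed the 10 largest by this rule. The 12 genes that fell at least 4-fold also hold DOCK8 (-2.29) and MYCN (-2.05), whose probes did not all move the same way. KRT14 (-1.82, with -0.28 at its second probe), FGFBP1 (-1.87) and the lipogenic transcription factor SREBF1 (-1.72) were among the 20 largest.

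**Figure D3:**
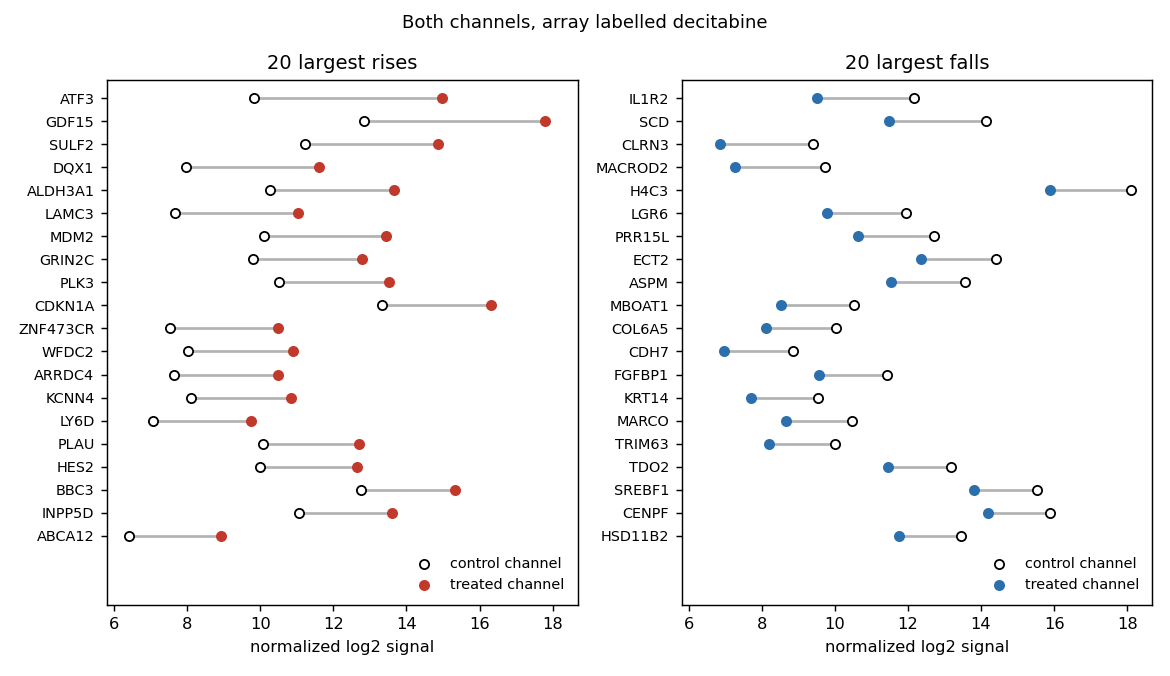
Normalised log2 signal (x axis) in the control channel (open circles) and the treated channel (filled circles) for the 20 largest rises (left) and the 20 largest falls (right) on the array labelled decitabine, among genes whose probes all moved the same way. The longest lines are those of ATF3 and GDF15, at 5.14 and 4.96, and the longest among falls is that of IL1R2, at -2.66.

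The median of p53 targets was above 0 in each of the 4 lists written for them, arrest and feedback, repair, apoptosis and metabolism. Of 64 measured targets, 42 rose and 2 fell, with a median log2 change of 0.98 and 12 genes above 4-fold, beside 5.08% rising and a median of 0.00 over all genes. In the list of arrest and feedback genes 16 of 20 rose and none fell, with a median of 1.77. CDKN1A (chr6:36654706-36654765, + strand), the p21 gene, went from 17620 to 56612 raw units, a normalised change of 2.97, with 3.57 at its second probe. MDM2, the ubiquitin ligase that degrades p53, rose by 3.35, and its 4 probes gave 3.35, 3.47, 2.69 and 2.37. The stress kinase PLK3 rose by 2.99, TP53INP1 by 2.39, PHLDA3, an inhibitor of AKT, by 2.32, ZMAT3 by 2.23 and cyclin G1 (CCNG1) by 1.00.

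Apoptosis genes among p53 targets rose in 12 of 21 cases, and 1, ZNF385A at -0.89, fell. BBC3 (PUMA), which blocks survival proteins of the BCL2 family, had normalised log2 signals of 12.77 and 15.32, a change of 2.55, with 2.10 at its second probe. The death receptor FAS rose by 2.41, PMAIP1 (NOXA) by 2.04 and the death receptor TNFRSF10B by 0.95. BAX, the pore-forming effector, rose by 1.52 at its brightest probe, and its others gave 1.34 and -0.01. This list had a median of 0.85. Of 7 genes for repair and nucleotide supply 5 rose (median 0.69), led by RRM2B, the p53-inducible ribonucleotide reductase subunit (1.77), and the damage sensor XPC (1.37). FANCC fell by 0.76. Metabolic targets rose in 9 of 16 cases with none falling (median 0.78): SPATA18, of mitochondrial quality control, by 2.09, the carboxylesterase CES2 by 1.64, CMBL by 1.58 and the fructose bisphosphatase TIGAR by 1.55.

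The p53 element, a pair of matching sites side by side, was looked for in RefSeq promoter windows (GRCh38.p14, the first listed start of each gene, 250 bases before it to 50 after it), keeping the C and the G of each site's core and allowing 2 other letters off in all. It was present in 2 of 51 promoters of these lists (3.92%), beside 0.214% of 13553 measured genes with a window and 0.271% of all 27305 windows, and in 7 of 683 risen genes (1.02%). GPX1, a glutathione peroxidase that rose by 0.90, is one of them and GLS2, a glutaminase that rose by 1.22, the other. The window of GPX1 is printed to show it, as the bases before the start at chr3:49358354-49358553 (- strand), with the element in capitals.
GPX1: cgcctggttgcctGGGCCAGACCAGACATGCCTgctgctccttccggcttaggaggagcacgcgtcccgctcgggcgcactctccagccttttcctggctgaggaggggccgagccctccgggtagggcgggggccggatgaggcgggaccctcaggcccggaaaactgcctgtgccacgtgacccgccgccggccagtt
Elements farther from the start are outside such windows.

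Immediate early and AP-1 genes, which cells switch on within minutes of a growth factor or stress signal, rose in 14 of 21 cases with none falling, beside 5.08% of all genes, and their median was 0.73. IER3, an early gene that limits cell death, rose by 1.91, FOSL1 by 1.70 (1.72 at its second probe), FOSB by 1.16 and KLF6 by 1.10, with 0.98 and -0.13 at its other probes. The KLF6 probe at -0.13 read 52.9 raw units in treated and 71.9 in control cells, dimmer than the median negative control spot of either channel. FOS and MYC rose by 0.62 and 0.75, whereas JUN was at 0.47. This list had a median of -0.17 on the array labelled carboplatin. Some ligands of the EGF receptor rose too: AREG by 1.15, EREG by 1.16 and HBEGF by 0.94. Of the 11 genes of that list 3 rose and 1, the receptor ERBB3 (-0.89, with -0.45 and 0.00 at its other probes), fell. The list median was -0.12, or 0.16 in the processed signals. The second probes of EREG and HBEGF gave 0.57 and 0.64. The integrated stress response, in which ATF4 drives genes of amino acid supply, was mixed, with 4 of 23 genes higher and 3 lower, beside 5.08% and 4.9% of all genes. ATF3, SESN2 (1.35) and PPP1R15A (1.01) rose, while ATF4 (0.18) and DDIT3 (0.32) did not pass 1.5-fold and the asparagine synthetase ASNS fell by 1.26. Among 14 chaperones of the endoplasmic reticulum 1 rose and none fell, and of 10 heat shock proteins none passed in either direction.

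Genes of mitosis and the spindle were the group with the most falls. Of 52 measured, 46 fell, beside 4.9% of all genes, and the median was -0.97. CCNB1, the cyclin that drives entry into mitosis, had normalised log2 signals of 13.94 in control and 12.60 in treated cells, a change of -1.34. The kinase PLK1 changed by -1.50 (-1.28 at its second probe), the kinetochore proteins CENPF and CENPE by -1.70 and -1.68, DLGAP5 by -1.57 and topoisomerase TOP2A by -0.78. CDK1 was at -0.46, short of 1.5-fold. CKS1B was the only member counted as a rise, at 1.12 by the probe that is brightest over the 3 arrays, but its other probes gave -0.69 and -0.37, the first of them the brighter probe on this array. By contrast 2 of the 52 fell on the array labelled carboplatin, with a median of -0.14, where 1.43% of all genes fell. With both drugs 47 fell, where 5.82% of all genes fell.

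Promoters of this group are shown because they share letters. The CCAAT box (CCAAT) and the CHR element (TTTGAA or TTCGAA) were read on both strands in the same windows, and matches of the patterns may overlap by an end letter. A CHR element was present in 32 of 44 mitotic promoters (72.7%), beside 12.9% of measured genes and 16.6% of all windows, and a CCAAT box in 33 of 44 (75%), beside 36.6% and 35.7%. Among all fallen genes with a window, 139 of 696 (20.0%) had a CHR element, and among risen genes 69 of 683 (10.1%). Below are the 120 bases before the start of CCNB2 (log2 change -1.29, chr15:59105026-59105145, + strand), PLK1 (chr16:23678769-23678888, + strand) and CDC20 (-0.99, chr1:43358861-43358980, + strand), with both patterns in capitals.
CCNB2: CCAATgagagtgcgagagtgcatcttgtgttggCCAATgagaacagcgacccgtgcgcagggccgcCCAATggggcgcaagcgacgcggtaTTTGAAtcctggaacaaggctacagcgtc
PLK1: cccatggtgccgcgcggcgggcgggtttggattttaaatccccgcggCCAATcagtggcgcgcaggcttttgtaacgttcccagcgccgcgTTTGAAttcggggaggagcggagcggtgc
CDC20: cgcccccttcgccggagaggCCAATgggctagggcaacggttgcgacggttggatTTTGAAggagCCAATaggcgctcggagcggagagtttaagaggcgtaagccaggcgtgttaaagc
In CCNB2 and PLK1 the CHR element begins 29 bases before the start, downstream of the CCAAT boxes, and in CDC20 it lies between the boxes. These are matches of letters and were not tested for binding.

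Falls were fewer and smaller among genes of DNA replication. Of 40 measured, 9 fell and 1 rose (median -0.31), beside 4.9% and 5.08% of all genes. MCM3 and MCM5, subunits of the replicative helicase, changed by -1.01 and -0.82, and PCNA, the sliding clamp and a p53 target, was the rise, at 0.69. The E2F element (TTTCCCGC, TTTGGCGC or TTTCGCGC, both strands) was present in 14 of 33 promoters of this list (42.4%), beside 3.77% of measured genes and 2.79% of all windows. One is that of GINS2, a helicase subunit with a change of -0.64, shown as the 80 bases before its start (chr16:85688955-85689034, - strand), element in capitals.
GINS2: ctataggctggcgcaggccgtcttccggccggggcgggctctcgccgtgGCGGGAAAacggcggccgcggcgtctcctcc
Crosslink and double-strand break repair genes fell in 7 of 31 cases and rose in 1, RAD51C at 0.70, with a median of -0.38. FANCL (-0.77), FANCD2 (-0.71), XRCC2 (-0.70) and BRCA1 (-0.69) fell. Among G1 cyclins, inhibitors and E2F factors 2 of 20 rose, cyclin D1 (CCND1) by 0.96 and the repressor E2F7 by 0.61, and 4 fell, namely CDKN2C (-1.68), CDKN1B (p27, -1.53), E2F8 (-1.25) and CDKN2A (-1.06). Rises, at 1, 1 and 2 genes in these lists, were too few to set them apart from the 5.08% of all genes.

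Replication-dependent histone genes, which are transcribed in S phase, fell in 12 of 41 cases, beside 4.9% of all genes, and rose in none (median -0.26). H4C3 went from 503308 raw units in control to 40863 in treated cells, a normalised change of -2.23. H4C4 changed by -1.49, H3C2 by -1.28 and H3C4 by -1.21, whereas the highest, H2AC8, was at 0.40. Histone genes are near copies of each other, so single values may hold signal of several. Of the 41, 6 rose and 1 fell on the array labelled carboplatin, beside 2.74% and 1.43% of all genes there. Their promoters commonly held the TATA box (TATAAA on the strand of the gene, 23 of 37, 62.2%, beside 6.23% of measured genes and 7.71% of all windows) and the CCAAT box (33 of 37, 89.2%), as in the 120 bases before H3C2 (chr6:26032100-26032219, - strand), where capitals mark both.
H3C2: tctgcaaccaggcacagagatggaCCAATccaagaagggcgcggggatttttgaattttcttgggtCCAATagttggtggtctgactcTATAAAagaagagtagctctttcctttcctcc
Of 24 genes of the DNA methylation machinery and HP1 proteins 3 fell and none rose (median -0.15): UHRF1, which brings DNMT1 to new DNA, by 0.83 (0.57 at its second probe), CBX1 (-0.75, with 0.10 at another probe) and ZBTB33 (-0.70, with 0.16). DNMT1, the target of decitabine, was at -0.27, DNMT3A at -0.09, DNMT3B at -0.17 and the HP1 gene CBX5 at -0.34. In the Polycomb list 1 of 15 fell, the methyltransferase EZH2 (-1.12), and none rose. These falls, 3 and 1, are too few to set the lists apart from the 4.9% of all genes.

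Of 41 genes of lipid synthesis and uptake 15 fell and 1 rose, beside 4.9% and 5.08% of all genes. In fatty acid synthesis 8 of 20 fell and none rose (median -0.32), and in cholesterol synthesis and uptake 8 of 22 fell and 1 rose (median -0.49). SREBF1, which encodes the SREBP1 factors that drive lipogenic genes, had normalised log2 signals of 15.53 and 13.81, a change of -1.72, and its second probe gave -1.07. INSIG1, the sterol-sensing brake on SREBP processing and a member of both lists, changed by -1.42, the fatty acid activating enzyme ACSL3 by -1.57, the desaturase FADS2 by -1.42 (-0.06 at another probe), the sterol carrier STARD4 by -1.44, and DHCR7, the last enzyme of cholesterol synthesis, by -1.07. FASN, the fatty acid synthase, was at 0.07. TM7SF2, a sterol reductase, rose by 1.01. Of the 20 fatty acid genes 4 fell on the array labelled carboplatin, beside 1.43% of all genes there, and SCD was at -1.47. The sterol element (TCACNCCAC, both strands) was present in 1 of 16 cholesterol promoters (6.25%), beside 1.11% of measured genes and 1.15% of all windows.

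Of 37 markers of intestinal identity 2 rose and 5 fell, beside 5.08% and 4.9% of all genes, and 13 were not above background. CLRN3, PRR15L and VIL1 (villin, -0.86) fell, and CEACAM1 rose by 1.55. KRT20 was at 0.01 and LGALS4 at 0.27. Of 24 Wnt targets and intestinal stem cell genes 1 rose, ASCL2 at 1.15 (0.27 at its other probe), and 4 fell, among them LGR6 and APCDD1, a Wnt antagonist, at -1.58. The other ASCL2 probe was dim, at 76.2 raw units in treated and 101.2 in control cells. AXIN2, the usual readout of Wnt signalling, was at -0.43, and the stem cell marker LGR5 was not above background. Among 23 keratins and adhesion genes 4 rose, led by KRT80 (1.47, with 0.23 at another probe) and with the simple keratin pair KRT18 (0.83) and KRT8 (0.73), and 2 fell, KRT14 (-0.28 at its second probe) and E-cadherin (CDH1, -0.88). The other KRT80 probe was dim, at 68.1 raw units in treated and 87.3 in control cells. KRT8 itself read only 194 raw units in treated and 218 in control cells, where KRT18 read 99572 and 146310. In extracellular matrix and integrins 9 of 34 rose and 1 fell: after SULF2, PLAU and SDC4 came LAMA3 at 1.20, ITGA3 at 0.96 and LAMB3 at 0.86, a laminin pair of epithelial basement membrane with their receptor chain. ACTA2, a smooth muscle actin, rose by 2.13 and CD68 by 1.00. They were the only rises among 20 fibroblast, endothelial and immune markers, of which 11 were not above background. Of these lists the matrix genes lie furthest above the share of all genes, by their rises, while the rises of the intestinal and Wnt lists are near that share. Falls in the intestinal list (5 of 37, 13.5%) and the Wnt list (4 of 24, 16.7%) lie above the 4.9% of all genes, on few genes.

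In the Notch and Hedgehog list 2 of 18 rose, the receptor NOTCH1 by 1.15 and its target HES1 by 1.44 (1.37 and 1.58 at its other probes), and 1 fell, beside 5.08% and 4.9% of all genes. For TGF-beta and BMP signalling 4 of 25 rose and 1 fell: TGFBR2 (1.25), BMP4 (1.20) and INHBA (1.02, with 0.06 at its other probe) against BAMBI, a decoy receptor, at -1.14. The other INHBA probe was close to the negative controls, at 58.9 raw units in treated and 78.0 in control cells. The NF-kB list held both directions, 6 of 30 up and 4 down. BIRC3 (1.51), RELB (1.41) and LIF (1.30) rose, and IL1R2, the chemokines CXCL1 (-1.42) and CCL20, and IL18 (-0.62) fell. Interferon response genes rose in 1 of 31 cases, TAP1 at 0.67, and fell in 3, IFI27 (-1.12, with -0.40 at its second probe), IFIT2 (-0.77, with -0.25) and IFITM1 (-0.66). The counts of the Notch and interferon lists are too small to set them apart from all genes. With carboplatin by label 3 of the 31 rose and 2 fell (median -0.06), beside 2.74% and 1.43% of all genes there, and IFI27 was at 1.09, IFITM1 at 1.65 and IFIT2 at -0.62. Of 29 cancer-testis genes, many of which are silenced by methylation outside the germ line, none rose or fell and 21 were not above background. PRAME was at -0.03 here with both channels not above background. On the carboplatin array the treated level exceeded control by at least 7.81-fold, and with both drugs by at least 5.99-fold, its control being not above background on either. GAGE12F, also not above background here, was at 6.14 and 5.68 on those arrays, where both of its channels were above background. Of this list, 7 members rose on the array labelled carboplatin, beside 2.74% of all genes there. Whether members of a family share probe signal was not tested, so the 7 may not be separate rises. PDLIM4, a methylated gene that the study follows, was at -0.22.

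Of 32 genes of the NRF2, glutathione and metallothionein list 4 rose and 6 fell, beside 5.08% and 4.9% of all genes. HMOX1, heme oxygenase, rose by 1.40 and SRXN1 by 0.89, while the metal-binding metallothioneins MT1F (-1.68), MT1E (-1.16), MT2A (-1.16) and MT1G (-0.75) and the reductase AKR1C3 (-1.26) fell. Metallothionein probes may share signal between copies. In hypoxia and glycolysis 3 of 25 rose, SLC2A3 (1.65), ADM (1.11) and EGLN3 (0.93), and 1 fell, LDHA (-0.66, with 0.00 and 0.09 at its other probes), too few to set the list apart from all genes. Lysosome and autophagy genes rose in 3 of 29 cases with none falling, and 3 is too few to set the list apart from the 5.08% of all genes. Of 23 genes for uptake, activation and export of the drugs 2 rose, the copper transporter SLC31A2 (0.69) and the exporter ABCC1 (0.64), and none fell, which does not set this list apart either. The kinase that activates decitabine, DCK, was at -0.26, and its nucleoside carrier SLC29A1 at 0.01.

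Mitochondrial ribosome genes had 11 of 68 rises, MRPL55 (1.11) and MRPL40 (1.09) the largest, and 1 fall, beside 5.08% and 4.9% of all genes. Their median of 0.29 became -0.24 with a median shift in place of loess, so its sign rests on the scaling. The same holds for the proteasome, where 2 of 30 rose, near the share of all genes, and the median was 0.22 (-0.30 with the median shift). For aminoacyl-tRNA synthetases none of 20 passed, and the median was 0.14, or -0.35 with the median shift, -0.11 in the processed signals and -0.02 in the scanner log ratio. Oxidative phosphorylation had 1 rise and 1 fall of 68. In the cytoplasmic ribosome 3 of 74 fell, near the share of all genes, and none rose, with a median of -0.14, or 0.01 when all probes were averaged, and 2 of 14 housekeeping genes fell, ACTB and PPIA, both at -0.84. The other probes of ACTB gave -0.14 and -0.15, and those of PPIA -0.61 to -0.20, the first of these also past 1.5-fold. GAPDH was at -0.10.

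**Figure D4:**
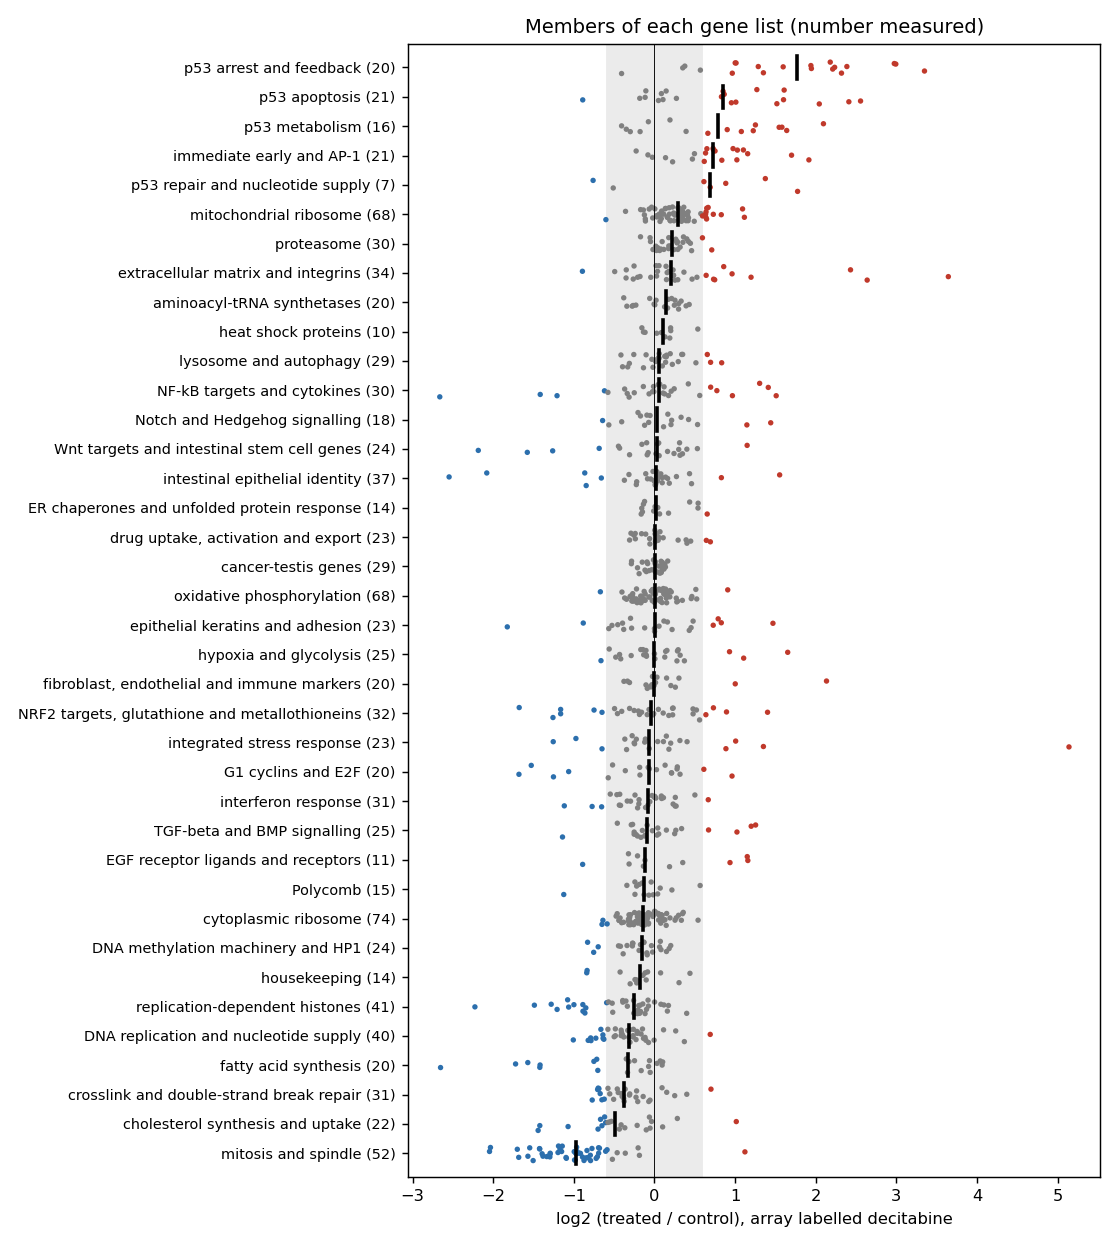
Log2 change on the array labelled decitabine (x axis) of every measured member of 38 gene lists, ordered by their median (black bar); red points rose and blue points fell at least 1.5-fold, and grey points lie within (shaded) that limit. The p53 list of arrest and feedback is at the top with a median of 1.77 and mitosis at the bottom with -0.97. The medians of the mitochondrial ribosome, proteasome and tRNA synthetases change sign with a median shift in place of loess, and those of some lists near 0 under this or other settings.

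Some genes were seen in 1 channel only. Limits for such genes were taken against the higher of the lowest signal that counted as above background and the gene's own signal in the dim channel. For the genes named in this paragraph the own signal was the higher. Their values are therefore fitted changes over a channel that was not above background, and not lower limits. In treated cells only, 53 genes were above background. Of these C22orf23 was 4.39-fold higher by the fitted change, though its other probes reached down to -0.17 on the log2 scale. The C22orf23 probe at -0.17 was dim, at 64.4 raw units in treated and 112 in control cells. GARIN4 was 3.15-fold higher, the cytidine deaminase APOBEC3H 3.12-fold and the sodium channel SCN2A 2.63-fold. The platelet-activating factor receptor PTAFR was 2.60-fold higher and the lipoxygenase ALOX5 2.47-fold. In control cells only, 698 genes were above background, and the control channel was the brighter of the 2. By the fitted change CCL20 was 2.31-fold lower and the receptor ADGRG2 2.18-fold lower in treated cells. A further 4389 genes were below background in both channels and were not counted as changed.

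The other arrays differed in how far they moved with these genes. Of 887 genes that rose here, 713 also rose at least 1.5-fold with both drugs, where 7.39% of all genes rose, and 2 fell, whereas on the array labelled carboplatin 151 rose, 6 fell and 730 stayed within 1.5-fold, where 2.74% of all genes rose. Of the 856 that fell, 675 also fell with both drugs, where 5.82% of all genes fell, and 1 rose, whereas on the array labelled carboplatin 118 fell, 11 rose and 727 stayed within 1.5-fold, where 1.43% of all genes fell. The 3 arrays share a slide and a kind of control, and whether they share control RNA is not stated in the sources used here. On their own, 479 genes rose and 250 fell on the array labelled carboplatin, and 1290 and 1016 with both drugs.

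The label of this array was not taken for settled. Lists of genes that the study presents for carboplatin were read on each array; they were chosen on these samples and are no independent evidence. The raised list, of mitochondrial and apoptosis genes, had 54 of 92 measured members up and 1 down here (median 0.81), 15 up on the array labelled carboplatin (median 0.22) and 52 up with both drugs (median 0.72). Over all genes 5.08%, 2.74% and 7.39% rose on these arrays, and 4.9%, 1.43% and 5.82% fell. A further 54 of its 146 members (37.0%) had probes in the edge strip alone, beside 1157 of 18621 genes with a probe (6.21%) and none of the 53 in the lowered list. With these columns kept, all 54 were at least 1.5-fold up here (median 1.36), as were 662 of 1155 edge strip genes with a value (median 0.81), and 4 of the 54 were up on the array labelled carboplatin (median -0.10) and 6 with both drugs (median 0.03). The lowered list, of cell division and replication genes, had 39 of 53 down here (median -0.73), 4 down on the array labelled carboplatin (median -0.16) and 37 down with both drugs (median -0.77). The treatment of each array was taken from its label and no array was reassigned. Which drug gave the changes above cannot be told apart from these data.

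**Figure D5:**
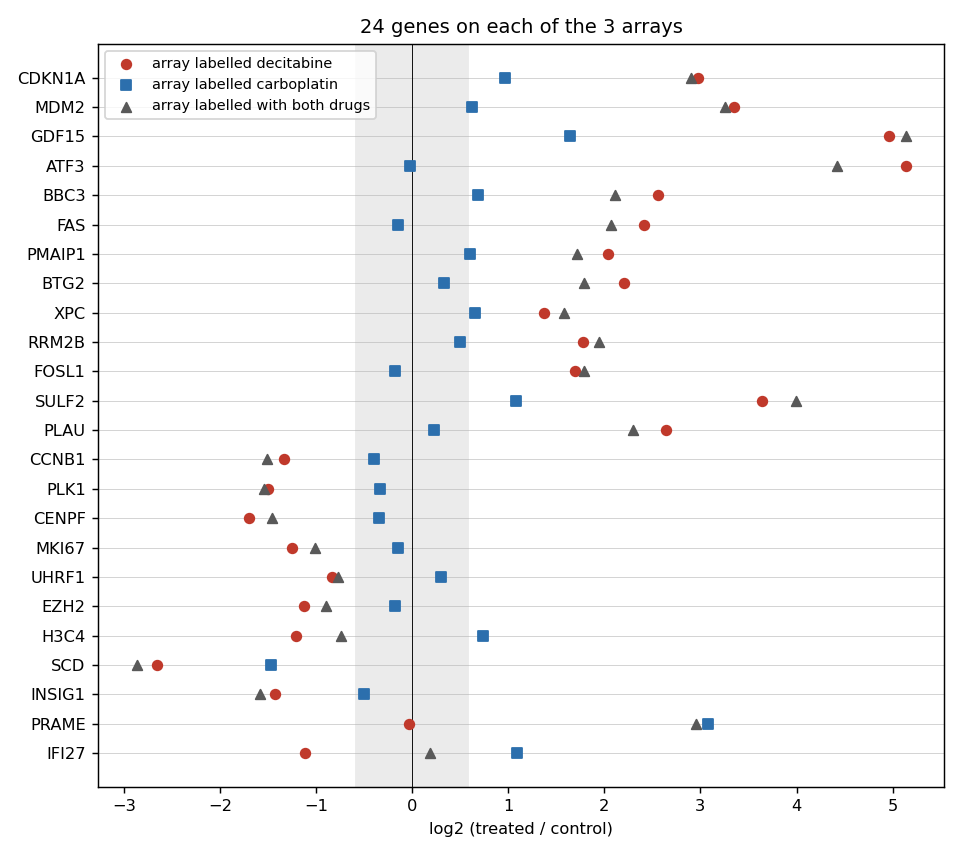
Log2 change of treated over control (x axis) for 24 genes on the arrays labelled decitabine (red circles), carboplatin (blue squares) and both drugs (grey triangles), with the range under 1.5-fold shaded. For CDKN1A (2.97, 0.96 and 2.91) and INSIG1 (-1.42, -0.50 and -1.59) the triangle lies on the same side of 0 as the circle. For PRAME it does not, with the circle at -0.03 and the triangle at 2.95. The points of PRAME are fitted changes over a control that was not above background on any array, and its own treated channel was not above background on the array labelled decitabine. The genes were picked after their values were seen.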

How the data were processed

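Scanner files of 3 arrays and a table of ratios were used. Intensity values were deposited by the authors as pixel means with local background, read by Agilent Feature Extraction (9.5.3.1 in the file headers, 8.5.1.1 in the submitters' processing notes). The log10 ratio of the deposited scanner files is red over green of signals processed by that software. The log2 ratio table deposited by the authors was loess normalised with limma (R 3.0.2 in those notes); its direction is not stated and was taken as treated over control from its correlation with the scanner values across probes (r = 0.948). Probe positions are hg19.

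Mean signals were background-corrected by normexp (offset 50) and loess-normalised per array in R 4.3.3 with limma 3.58.1, leaving out control spots, 276 outlier spots and columns 1 to 9. The offset shrinks changes of dim genes. The function was tested on a simulated array. Single channels were scaled by Aquantile. Of 41000 probes, 29395 matched a RefSeq gene by accession (26400) or symbol (2995), and the probe of a gene that is brightest over the 3 arrays stands for it. Tables were made with Python 3.11.15, pandas 2.3.3 and scipy 1.17.1. Named genes are the 30 largest rises and falls whose probes all moved the same way, the 4 largest per list, the 15 brightest 1-channel genes and preset list members, some of which are not reported here. Genes named beside these (CCNB2, CDC20, FADS2, GPX1, DOCK8, GLS2, GINS2, H2AC8, ITGA3, MT1G, MYCN, PDLIM4, DNMT3A, DNMT3B), apart from cell type markers, were picked after their values were seen. The members, lists and motifs were chosen with earlier results of these data known. No batch could be tested, as each array holds 1 group.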

Additional observations from a re-analysis of the deposited data

How the results depend on the processing

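No paired analysis was possible because there is 1 array per treatment, and leaving out a replicate was not possible for the same reason. Rises numbered 1515 with columns 1 to 9 kept, 374 with median centring in place of loess and 295 at 2-fold, against 887, and falls 2109 from the processed signals, 1694 from the scanner log ratio, 3528 with median centring and 190 at 2-fold, against 856. Of the 887 rises, 353 were also rises under median centring and 684 in the authors' table, and of the 856 falls 849 and 843 were also falls. The share of changed genes that rose, 50.9%, was 63.0% with the columns kept, 30.3% from the processed signals, 40.5% from the scanner log ratio, 9.58% with median centring, 38.9% in the authors' table and 57.1% with all probes averaged. Of 260 named genes 236 moved by more than the SD of repeated spots under median centring, 205 in the processed signals, 160 in the scanner log ratio, 141 in the authors' table and 80 with all probes averaged. Of 40 list medians 39, 32, 13, 18 and 5 moved under these settings, in the same order. List medians that moved numbered 6 with columns 1 to 9 kept, 7 with both channels above background and 1 with no background subtraction. RPS2 turned from -0.64 to 0.0197 with all probes averaged and TKT from 0.64 to -0.00653 with median centring. The other alternatives, normexp on median signals, no background subtraction, loess on probes above background, saturated spots left out and both channels above background, kept both counts within 1.5 times. The causes were not tested. Signal over background limits dim genes, of which only limits, fitted changes over a channel not above background, or no call can be given.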

Other observations

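Genes with probes in the edge strip alone, 1155 of them with a value, were left out of the counts above, apart from those given for the strip or with its columns kept. Their median log2 change was 0.81 with an SD of 0.70, so their values are read relative to that median. Relative to it the p53 targets FDXR, NINJ1, DDB2, PLK2, AEN and PIDD1 were at 3.06, 2.74, 2.45, 2.41, 2.06 and 2.03. On the array labelled carboplatin, where the strip had a median near 0, FDXR was at 1.10, NINJ1 at 0.68, DDB2 at 0.83, PLK2 at 0.28, AEN at 0.83 and PIDD1 at 0.48, and with both drugs at 2.45, 2.62, 1.99, 1.65, 1.77 and 1.49.

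By chromosome, beside 5.08% rising and 4.9% falling over all genes, chromosome 9 had the highest share of rises, 55 of 667 (8.25%), and chromosome 6 the highest share of falls, 70 of 939 (7.45%). Further, 84 of 1224 genes on chromosome 19 rose (6.86%) and 34 fell (2.78%), while on chromosome 13 4 of 300 rose (1.33%) and 22 fell (7.33%), and on the X chromosome 13 of 688 rose (1.89%) and 31 fell (4.51%). The histone genes H4C3 and H3C2, whose falls are given above, lie on chromosome 6. Chromosome differences were not tested.

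The genes that follow lie outside the lists and were picked after their values were seen. The cytidine deaminases APOBEC3C and APOBEC3F, which restrict retroviruses, rose by 2.11 and 1.95. TXNIP, a regulator of thioredoxin and glucose uptake, rose by 2.19, the noncoding RNA UCA1 by 2.07 and H19 by 1.80, and UCA1 and H19 were also at 1.82 and 2.19 on the array labelled carboplatin. The calcium-binding protein S100A2 rose by 1.78 and the serpin SERPINB5 by 1.62. MYCN changed by -2.05, the nuclear lamina gene LMNB1 by -1.42, the chromatin protein HMGB2 by -1.22 and the proliferation marker MKI67 by -1.25.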
